A study of Mus musculus with 20 samples.

Results

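Expression of 8 genes best known from neutrophils and their granules was followed through cultures of mouse bone marrow-derived macrophages: S100a8, S100a9, Ltf, Lcn2, Ngp, Padi4, Serpinb1a and Chil3. They are 8 of the 24342 gene symbols in the count table, and for each symbol the RefSeq transcript with the highest total count was taken. The genes were chosen by name with their measured SGC0946 against DMSO log2 CPM values in view, so those values are given as a description with no test. Genes related to them were tested, and so were the responses of the 8 genes to LPS and GW3965. Values of all 6 groups were in view at that choice, so the adjusted p values of these responses are not independent of it. All 8 passed the low-count filter, which the DMSO libraries alone would have met.

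Neutrophils mature in the bone marrow from progenitors that can also become monocytes and macrophages, and they fill their granules in waves with antimicrobial proteins. The genes for these proteins are switched on by myeloid transcription factors of the C/EBP, RUNX and PU.1 families, and transcripts of secondary granule proteins are a mark of late granulocyte precursors. S100a8 and S100a9 encode the calcium-binding proteins that pair up as calprotectin and fill the neutrophil cytosol. Some of these proteins, Lcn2 among them, can also be made by macrophages that sense bacterial lipopolysaccharide.

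Bone marrow of C57BL/6 mice was cultured for 7 to 8 days with 15% L929-conditioned medium, a source of the macrophage growth factor M-CSF. The inhibitor SGC0946, which blocks the histone H3K79 methyltransferase DOT1L, was present at 1 µM while the cells differentiated, and DMSO was the solvent control. There were 4 SGC0946 and 4 DMSO cultures without stimulus. A further 3 SGC0946 and 3 DMSO cultures received 10 ng/mL LPS for 3 h, and 3 SGC0946 and 3 DMSO cultures received 2 µM GW3965, an agonist of the liver X receptors, for 17 h. The genotype label is C57BL/6 in every group, and no group carries a transgene or deletion. SGC0946 was given throughout differentiation, so its effect on the making of macrophages and its effect in finished macrophages were not separated by this design. A deposited sample sheet names mice M1 to M4, so libraries with the same replicate number came from the same mouse.

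Depth was 8.18 to 13.3 M counts per library over the symbols (median 10.4 M). Macrophage markers dominated in all 20 libraries. The summed level of 8 of them was 12971 to 19932 CPM (counts scaled to library size with TMM factors) in SGC0946 libraries and 15187 to 20805 CPM in DMSO libraries. Dot1l mRNA, which an enzyme inhibitor need not alter, differed by a log2 fold change of -0.18 in unstimulated cells, -0.28 with LPS and -0.17 with GW3965 (edgeR adjusted p = 0.44, 0.321 and 0.607). The word reanalyzed stands in 6 library titles, those of mice 1 to 3 in the DMSO and the DMSO+GW3965 groups. In the GW3965 comparison of SGC0946 with DMSO this word and the inhibitor cannot be told apart, in unstimulated cells they can be told apart only through DMSO replicate 4, and no LPS library carries it.

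On the GRCm38 build (mm10), S100a8 lies at chr3:90669071-90670034 on the plus strand with 3 exons, and S100a9 at chr3:90692630-90695721 on the minus strand with 3 exons. The gap between them is 22.6 kb with 0 annotated genes in it. Ngp lies at chr9:110419808-110423012 (plus strand, 4 exons) and Ltf at chr9:111019292-111042766 (plus strand, 17 exons), 596 kb apart with 25 genes between them. Lcn2 is at chr2:32384637-32387739 (minus strand, 6 exons), Padi4 at chr4:140745508-140774239 (minus strand, 16 exons), Serpinb1a at chr13:32842092-32853206 (minus strand, 7 exons) and Chil3 at chr3:106147554-106167564 (minus strand, 11 exons). The exons of the 8 genes shared 0% of their length with other annotated genes.

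The promoter windows of the 5 genes with the lowest SGC0946 values relative to DMSO are shown because these genes were low together in unstimulated SGC0946 cells, while Lcn2 stood apart from the rest with LPS. Each window runs from 250 bases before to 50 bases after the RefSeq start (GRCm38.p6), 5′ to 3′ on the gene's own strand, and capitals mark matches to the C/EBP pattern TTNNGNAA on either strand.
S100a8: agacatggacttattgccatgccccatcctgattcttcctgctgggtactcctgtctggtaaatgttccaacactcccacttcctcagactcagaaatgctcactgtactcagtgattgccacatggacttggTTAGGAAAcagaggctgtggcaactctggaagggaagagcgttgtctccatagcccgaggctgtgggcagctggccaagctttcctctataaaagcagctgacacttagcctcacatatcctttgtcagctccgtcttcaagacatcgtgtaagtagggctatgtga
S100a9: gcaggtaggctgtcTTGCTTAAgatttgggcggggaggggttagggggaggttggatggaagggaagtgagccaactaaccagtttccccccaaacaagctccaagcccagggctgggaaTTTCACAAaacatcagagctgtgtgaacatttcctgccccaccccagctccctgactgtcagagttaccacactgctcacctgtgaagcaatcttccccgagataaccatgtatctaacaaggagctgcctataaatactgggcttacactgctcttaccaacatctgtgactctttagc
Ngp: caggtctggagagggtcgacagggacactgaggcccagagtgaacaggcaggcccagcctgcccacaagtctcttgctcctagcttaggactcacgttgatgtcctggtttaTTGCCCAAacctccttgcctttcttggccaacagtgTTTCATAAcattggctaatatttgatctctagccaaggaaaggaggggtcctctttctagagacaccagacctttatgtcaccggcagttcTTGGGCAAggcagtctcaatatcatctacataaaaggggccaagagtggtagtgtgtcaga
Ltf: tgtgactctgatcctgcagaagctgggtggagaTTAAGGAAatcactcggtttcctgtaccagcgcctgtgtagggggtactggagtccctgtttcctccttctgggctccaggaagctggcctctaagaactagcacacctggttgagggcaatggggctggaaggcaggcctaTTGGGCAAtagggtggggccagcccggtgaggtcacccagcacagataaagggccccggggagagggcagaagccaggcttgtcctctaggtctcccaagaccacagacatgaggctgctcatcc
Lcn2: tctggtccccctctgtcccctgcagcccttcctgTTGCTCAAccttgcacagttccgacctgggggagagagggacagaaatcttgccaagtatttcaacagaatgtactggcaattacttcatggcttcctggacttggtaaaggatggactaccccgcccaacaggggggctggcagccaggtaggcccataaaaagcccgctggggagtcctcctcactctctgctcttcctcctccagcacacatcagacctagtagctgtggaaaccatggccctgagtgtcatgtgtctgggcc
These windows are chr3:90668821-90669120 (plus) for S100a8, chr3:90695672-90695971 (minus) for S100a9, chr9:110419558-110419857 (plus) for Ngp, chr9:111019042-111019341 (plus) for Ltf and chr2:32387690-32387989 (minus) for Lcn2. Of the 7 members with a window, 6 held the C/EBP pattern, against 40.7% of the 32851 windows in the RefSeq table. Ngp and Chil3 had 3 matches each, S100a9 and Ltf 2, Lcn2 and S100a8 1, and Padi4 0. In Ngp the matches began at positions -138, -102 and -11 from the start. A RUNX pattern (TGTGGT, both strands) was present in 2 members and in 16.8% of all windows, a PU.1 pattern (GAGGAA) in 3 members and 28.3%, an NF-kB site pattern in 1 member, Chil3, and 20.7%, and a TATA pattern (TATAAA) in 4 members and 13.6%. Matches of different patterns did not overlap in the members' windows. A match is a description of letters and not a bound site, and a missing match says only that the letters are not in this window.

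S100a8 and S100a9, the calprotectin genes, were lower with SGC0946 in every condition. In unstimulated cells, SGC0946 replicates 1 to 4 had 4, 19, 11 and 14 reads of S100a8, against 52, 108, 70 and 92 reads in DMSO replicates 1 to 4. For S100a9 they had 6, 19, 9 and 32 reads, against 124, 160, 183 and 157 reads in DMSO cells. The highest SGC0946 library was below the lowest DMSO library for both genes. S100a8 averaged 0.939 ± 0.441 CPM in SGC0946 cells and 6 ± 1.29 CPM in DMSO cells (SD, n = 4 each), a log2 fold change of -2.64 ± 0.31 (SE). S100a9 averaged 1.26 ± 0.777 CPM in SGC0946 cells and 11.8 ± 1.92 CPM in DMSO cells, a log2 fold change of -3.17 ± 0.26. In bulk RNA, fewer cells of a type and less RNA per cell cannot be told apart, and this holds for every value here.

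With LPS, SGC0946 replicates 1 to 3 had 15, 20 and 10 reads of S100a8, against 64, 82 and 54 reads in DMSO cells. For S100a9 they had 25, 19 and 21 reads, against 100, 121 and 140. With GW3965, SGC0946 cells had 7, 18 and 4 reads of S100a8, against 52, 90 and 78 in DMSO cells, and 17, 22 and 11 reads of S100a9, against 131, 161 and 132. The groups were again apart for both genes. The log2 fold changes of S100a8 were -2.05 ± 0.36 with LPS and -2.73 ± 0.38 with GW3965, and those of S100a9 were -2.38 ± 0.29 and -2.88 ± 0.30. Without SGC0946+GW3965 replicate 2, which had the most reads of both genes in its group, the S100a8 value was -3.49. Without replicates 2 and 4 of both arms, the S100a9 value in unstimulated cells was -4.21.

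Ngp, a cystatin-like granule protein, and Ltf, the iron-binding lactoferrin of secondary granules, were low in the same libraries. Unstimulated SGC0946 cells had 5, 9, 6 and 24 reads of Ngp, against 84, 148, 102 and 140 in DMSO cells. They had 7, 11, 12 and 32 reads of Ltf, against 76, 105, 89 and 106. In both genes SGC0946 replicate 4 was the highest of its group and still under the lowest DMSO library. Ngp averaged 0.839 ± 0.589 CPM in SGC0946 cells and 8.87 ± 1.58 CPM in DMSO cells (log2 fold change -3.33 ± 0.27), and Ltf averaged 1.20 ± 0.748 CPM and 7.09 ± 0.651 CPM (-2.52 ± 0.27). Without SGC0946 replicate 4 the Ngp value was -3.98.

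Ltf had the most negative value of all 8 genes with GW3965. SGC0946+GW3965 replicates 1 to 3 had 2, 3 and 1 reads of Ltf, against 81, 74 and 100 reads in DMSO+GW3965 cells. The log2 fold change was -5.13 ± 0.47, from means of 0.177 ± 0.0792 CPM and 6.73 ± 1.55 CPM (SD, n = 3 each), and it rests on 6 SGC0946 reads in all. With LPS, Ltf had 4, 6 and 1 reads in SGC0946 cells, against 24, 38 and 48 in DMSO cells (-3.21 ± 0.48). Ngp, by comparison, had 8, 14 and 6 reads with LPS, against 81, 117 and 84 (-3.22 ± 0.34), and 1, 8 and 4 reads with GW3965, against 93, 101 and 85 (-4.18 ± 0.39). Without SGC0946+GW3965 replicate 2 the Ngp value with GW3965 was -4.91.

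Lcn2 encodes lipocalin 2, which binds bacterial siderophores and so keeps iron from bacteria. Unstimulated SGC0946 cells had 2, 4, 2 and 5 reads of Lcn2, against 26, 47, 46 and 49 in DMSO cells, the lowest counts of the 8 genes in that SGC0946 group. With GW3965, SGC0946 cells had 3, 6 and 4 reads, against 50, 41 and 43. These groups lay far apart, with log2 fold changes of -3.55 ± 0.28 and -3.12 ± 0.30. With LPS, SGC0946 cells had 73, 113 and 66 reads of Lcn2, against 124, 167 and 137 in DMSO cells. That is 11.3 ± 2.34 CPM and 17.9 ± 1.03 CPM (SD, n = 3 each), a log2 fold change of -0.67 ± 0.16, or 1.59-fold lower in SGC0946 cells. The groups still did not overlap, and the fold was the smallest of the 8 genes with LPS, next to that of Serpinb1a.

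Padi4, the peptidylarginine deiminase that citrullinates histones when neutrophils release chromatin, had smaller folds on higher counts. Unstimulated SGC0946 cells had 40, 64, 46 and 74 reads of Padi4, against 130, 140, 160 and 168 in DMSO cells (log2 fold change -1.35 ± 0.13). It had 35, 33 and 26 reads with LPS, against 64, 72 and 62 (-0.98 ± 0.19), and 29, 35 and 38 reads with GW3965, against 125, 90 and 106 (-1.43 ± 0.17). No SGC0946 library reached the lowest DMSO library of its condition. Chil3, a chitinase-like protein also known as Ym1, had 17, 22, 18 and 35 reads in unstimulated SGC0946 cells, against 61, 85, 69 and 89 in DMSO cells (-1.64 ± 0.19). Its counts were 22, 24 and 12 with LPS, against 59, 70 and 68 (-1.68 ± 0.23), and 21, 30 and 13 with GW3965, against 81, 49 and 47 (-1.24 ± 0.23), with no overlap in either condition.

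Serpinb1a, an intracellular inhibitor of neutrophil serine proteases, had the smallest fold in unstimulated cells. SGC0946 cells had 52, 41, 72 and 29 reads, against 92, 104, 89 and 77 in DMSO cells, and after scaling to library size the groups overlapped. It averaged 4.03 ± 1.93 CPM in SGC0946 cells and 6.87 ± 0.808 CPM in DMSO cells (SD, n = 4 each), a log2 fold change of -0.80 ± 0.23. The values were -0.70 ± 0.31 with LPS (40, 29 and 20 reads, against 54, 55 and 45) and -0.86 ± 0.28 with GW3965 (34, 35 and 48 reads, against 104, 78 and 67), where the groups did not overlap. Its counts are uncertain to the extent that reads were split with the close paralogs Serpinb1b and Serpinb1c.

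**Figure D1:**
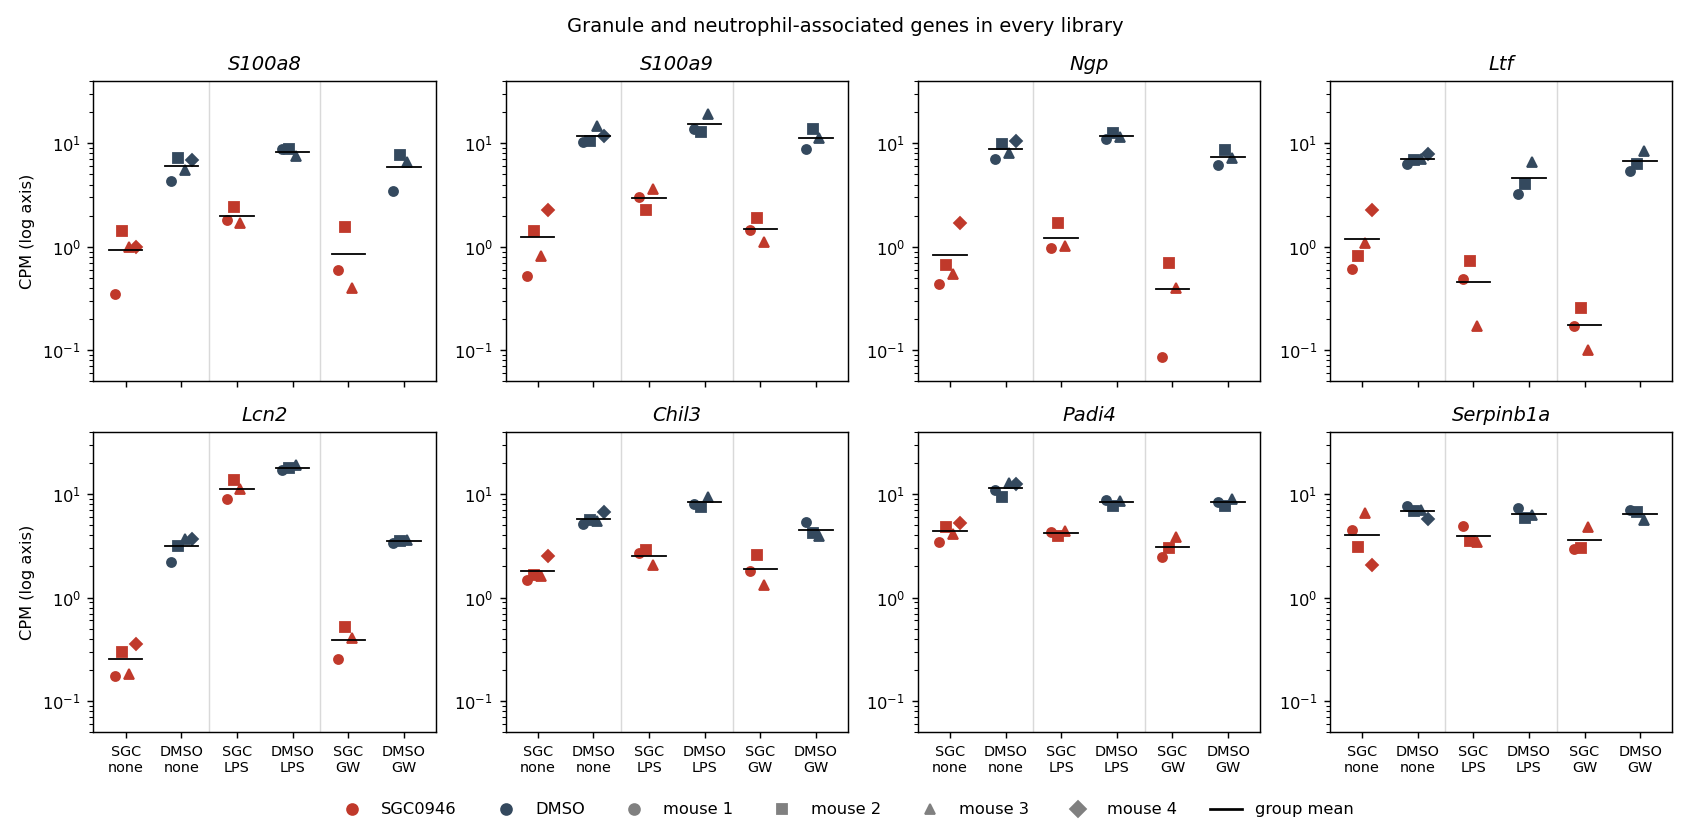
TMM-scaled CPM of each gene (log axis) in the 20 libraries, with SGC0946 in red and DMSO in dark grey, without stimulus, with LPS and with GW3965; each point is a library, its shape is the mouse, and lines are group means. SGC0946 points lie under DMSO points in every condition except for unstimulated Serpinb1a, and with LPS the Lcn2 and Serpinb1a points of the 2 arms lie close together.

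Across the 8 genes the median log2 fold change of SGC0946 over DMSO was -2.58 in unstimulated cells, -1.86 with LPS and -2.81 with GW3965, where the median of all 12013 genes tested was -0.00, -0.00 and 0.00. Every SGC0946 library was below every DMSO library for 7 of 8 genes in unstimulated cells, for 8 with LPS and for 8 with GW3965. The same held for 8.39%, 11.7% and 10.4% of all genes tested. Since the genes were chosen with these values in view, nothing is read from that difference. The summed level of the 8 genes was 11.6 to 17.5 CPM in SGC0946 cells and 54.1 to 65.9 CPM in DMSO cells. It was 27.1 to 31 CPM in SGC0946+LPS and 76.9 to 88.3 CPM in DMSO+LPS cells, and 9.77 to 13.6 CPM in SGC0946+GW3965 and 48 to 58.5 CPM in DMSO+GW3965 cells.

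**Figure D2:**
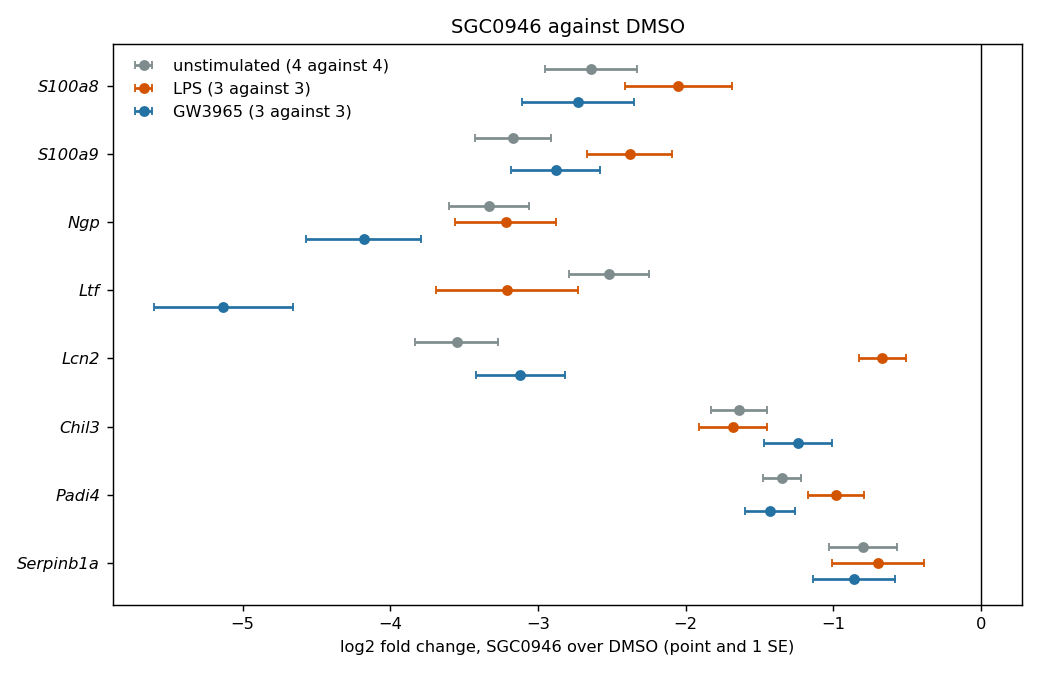
Log2 fold change of SGC0946 over DMSO for each gene (point and 1 SE) without stimulus, with LPS and with GW3965. All 24 points are negative; Lcn2 runs from -3.55 without stimulus to -0.67 with LPS, and Ltf is at -5.13 with GW3965.

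The direction was the same in every mouse. Differences within a mouse (4 mice without stimulus, 3 with LPS and 3 with GW3965) were all negative for the 8 genes. They lay between -4.94 and -0.12 on the log2 CPM scale with a prior count of 2. The genes were chosen with these values in view and mice 1 to 3 recur in each condition, so this direction is a description only. By mouse, the median of the 8 genes was -2.90, -2.48, -2.41 and -2.0 in mice 1 to 4 without stimulus, -1.81, -1.55 and -2.06 in mice 1 to 3 with LPS, and -2.34, -2.29 and -2.92 with GW3965. Without stimulus, the only condition with mouse 4, that mouse had the smallest median shift. SGC0946 replicate 4 had the highest level of its group for 6 of the 8 genes and SGC0946 replicate 1 the lowest for 7. S100a9 varied most between mice without stimulus, with differences between -3.91 and -2.28, and Chil3 least, between -1.68 and -1.36.

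Defining neutrophil markers were nearly absent, and their sum was also lower with SGC0946. The 5 markers Ly6g, Camp, Cxcr2, Retnlg and Elane belong to the list of neutrophil genes used further on and were all under the low-count filter, with 0 to 5 reads in sum per unstimulated SGC0946 library and 12 to 26 per DMSO library. Their summed level was 0 to 0.356 CPM in SGC0946 cells and 0.900 to 2.07 CPM in DMSO cells. It was 0.120 to 0.732 CPM in SGC0946+LPS and 1.11 to 1.28 CPM in DMSO+LPS cells, and 0.259 to 0.428 CPM in SGC0946+GW3965 and 0.804 to 1.54 CPM in DMSO+GW3965 cells. The sums did not overlap in any of the 3 conditions, so the summed level of these 5 markers moved with that of the 8 genes. With LPS the reads in DMSO cells were mostly of Camp, at 23, with 5 of Retnlg, 1 of Ly6g and 0 of Cxcr2 and Elane. The part of these markers in the result was not tested. Of the defining markers, Ly6g and Retnlg had 0 reads in each unstimulated SGC0946 library and 7 and 8 reads over the 4 DMSO libraries. Markers of erythroid cells had 0 reads in every library. Cxcr2 and Elane went against the sum with LPS. Cxcr2 had 5 reads in 1 SGC0946+LPS library and 0 in the DMSO+LPS libraries, and Elane had 1 and 0. The summed macrophage markers overlapped between the arms in all 3 conditions, without stimulus at 13973 to 18459 CPM in SGC0946 cells and 16909 to 18354 CPM in DMSO cells. With LPS, SGC0946 replicates 1 to 3 were at 17220, 19932 and 16522 CPM, against 19431 to 20805 CPM in DMSO cells. With GW3965 they were at 13702, 15853 and 12971 CPM, against 15187 to 15872 CPM. In both, the overlap came from SGC0946 replicate 2 alone, and replicates 1 and 3 lay under every DMSO library.

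The sum of 5 dendritic cell markers moved the other way. It was 21.5 to 32.2 CPM in SGC0946 cells and 11.9 to 18.5 CPM in DMSO cells without stimulus, and 27.5 to 40.8 CPM in SGC0946+LPS and 15.3 to 25.1 CPM in DMSO+LPS cells. With GW3965 the arms overlapped, at 16.7 to 22.4 CPM in SGC0946+GW3965 and 9.83 to 18.1 CPM in DMSO+GW3965 cells. Of 18 tested markers of any cell type, 3 rose and 1 fell without stimulus: Itgax, the integrin CD11c (0.80 ± 0.20, edgeR adjusted p = 0.015), Siglecf, a lectin of eosinophils and some macrophages (1.01 ± 0.29, 0.0356), Itgam, the integrin CD11b (0.25 ± 0.06, 0.00981), and Cd68, a lysosomal protein of macrophages (-0.14 ± 0.04, 0.0496). The Itgax call was lost when SGC0946 replicate 4 (0.0551) or DMSO replicate 2 (0.0605) or 4 (0.0546) was left out, and the Siglecf call held in 10 and the Cd68 call in 2 of 18 alternatives, with adjusted p between 0.00786 and 0.41 and between 0.00546 and 0.7. Each of the 4 calls was lost without replicates 2 and 4, where calls over all genes fell from 1048 to 235. Without the libraries titled reanalyzed, DMSO replicate 4 alone is left in its group. The values were then 0.95 for Itgax, 1.12 for Siglecf, 0.34 for Itgam and -0.10 for Cd68. Over all genes tested, 4.55% rose and 4.18% fell without stimulus. These shares were 3.86% and 3.26% with LPS, and 2.24% and 1.4% with GW3965. With LPS edgeR called 0 of the 18 markers, 8 had an unadjusted p under 0.05, and DESeq2 called 3. With GW3965 Siglecf (1.3 ± 0.32, edgeR adjusted p = 0.025) and Kit, the stem cell factor receptor (0.94 ± 0.26, 0.0465), rose, calls that held in 11 and 8 of 15 alternatives, with adjusted p between 0.00872 and 0.149 and between 0.000272 and 0.181. The part of these markers in the values of the 8 genes was not tested.

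**Figure D3:**
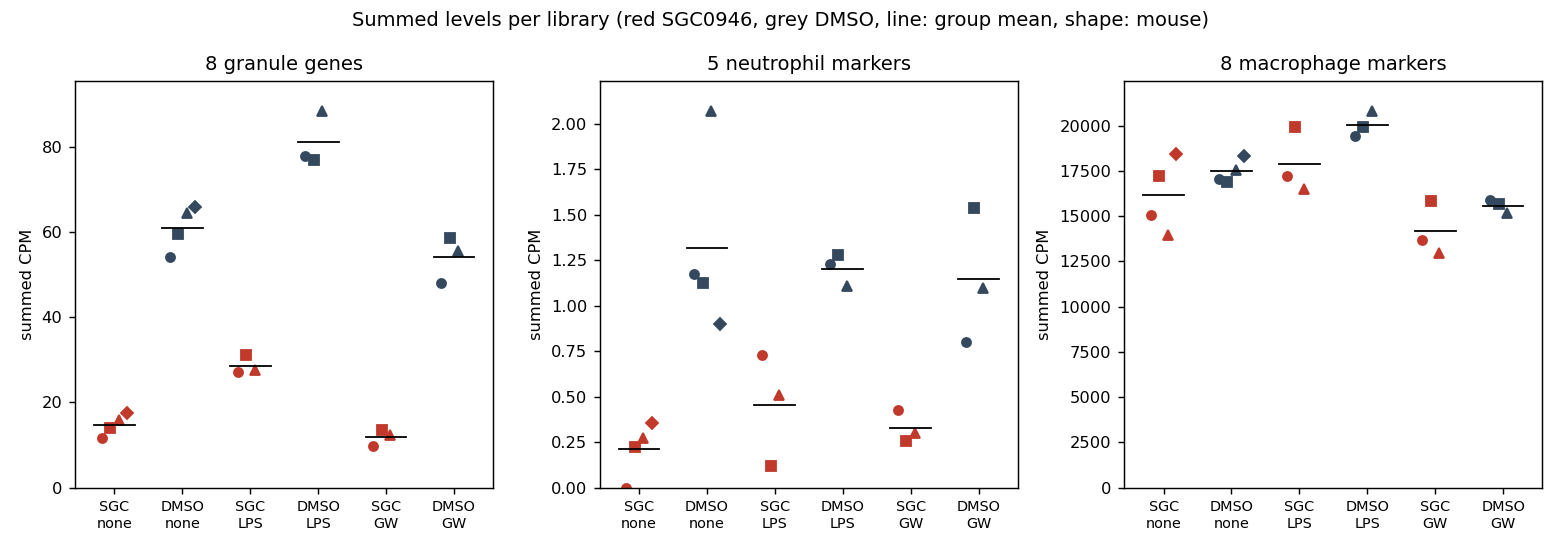
Summed TMM-scaled CPM per library of the 8 granule genes, of 5 neutrophil markers and of 8 macrophage markers, with SGC0946 in red and DMSO in dark grey. The first 2 panels separate the arms in each condition, with neutrophil markers at or under 0.732 CPM in SGC0946 and at or above 0.804 CPM in DMSO libraries. In the macrophage panel the arms overlap in each condition, with LPS and with GW3965 through SGC0946 replicate 2 alone.

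LPS raised Lcn2 in both arms. In SGC0946 cells Lcn2 averaged 11.3 CPM with LPS and 0.252 CPM without, a log2 fold change of 5.38 ± 0.25, or 41.6-fold (edgeR adjusted p = 1.43e-14). In DMSO cells it averaged 17.9 CPM with LPS and 3.16 CPM without, a log2 fold change of 2.49 ± 0.16, or 5.62-fold (edgeR adjusted p = 3.34e-12). All LPS libraries lay above all unstimulated libraries in each arm, and scaling to library totals alone left both values positive, at 4.65 and 1.76. On the log2 scale the response was larger in SGC0946 cells, by 2.89 ± 0.34. This value shares the unstimulated contrast used to choose the genes and so is given without a test. It starts from 2, 4, 2 and 5 reads in unstimulated SGC0946 cells, and with LPS the level stayed under that of DMSO cells. Within mice 1 to 3 the Lcn2 response lay between 4.68 and 4.99 in SGC0946 cells and between 2.32 and 2.86 in DMSO cells, on the log2 CPM scale with a prior count of 2.

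The scaling bears on the other LPS responses. LPS libraries had TMM factors of 0.686 to 0.716 and all other libraries of 1.14 to 1.19, and with library totals alone the median response of all genes was -0.81 in SGC0946 and -0.80 in DMSO cells, where TMM gave -0.07 in each. In SGC0946 cells S100a8 rose by 1.06 ± 0.45 and S100a9 by 1.15 ± 0.37 on the log2 scale (edgeR adjusted p = 0.0368 and 0.00862), while with library totals they were 0.32 and 0.42 and neither passed. The S100a8 call was lost in 6 of 17 alternatives, with adjusted p between 0.00763 and 0.488, among them leaving out SGC0946 replicate 1 (0.0941), 3 (0.0511) or 4 (0.0533) or SGC0946+LPS replicate 1 (0.0588) or 2 (0.15). The S100a9 value was 2.28 without replicates 2 and 4. In DMSO cells S100a8 at 0.46 ± 0.26 and S100a9 at 0.36 ± 0.21 did not pass (edgeR adjusted p = 0.113 and 0.127), turned to -0.26 and -0.37 with library totals, and passed when the mouse was a block (0.54 and 0.43, edgeR adjusted p = 0.0222 and 0.0478) and with only the groups compared (0.0226 and 0.0466). S100a8 also passed there without replicates 2 and 4 (0.0361).

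Ltf fell with LPS in both arms, by 1.31 ± 0.55 on the log2 scale in SGC0946 cells (edgeR adjusted p = 0.0381) and by 0.62 ± 0.26 in DMSO cells (edgeR adjusted p = 0.0387). The SGC0946 call was lost without SGC0946 replicate 4 (-0.75, adjusted p = 0.19) and without SGC0946+LPS replicate 1 (0.0909) or 3 (0.131), and also with only the groups compared (0.0744), without the libraries titled reanalyzed (0.0562) and without replicates 2 and 4 (0.188). It held in 11 of 17 alternatives, with adjusted p between 0.00112 and 0.19. The DMSO call was lost without DMSO replicate 2 (0.0545), 3 (0.0588) or 4 (0.0839) and without DMSO+LPS replicate 1 (0.186) or 2 (0.142). It was also lost with DESeq2's size factors in edgeR (0.0549), with DESeq2 (0.0698) and without replicates 2 and 4 (0.201). Without the libraries titled reanalyzed it was lost at -0.78, with DMSO replicate 4 alone left in its group. The DMSO call so held in 8 of 17 alternatives, with adjusted p between 5.4e-05 and 0.201. Padi4 fell by 0.45 ± 0.14 in DMSO cells (edgeR adjusted p = 0.0077) and was at -0.08 ± 0.18 in SGC0946 cells, where it did not pass (0.699). With library totals Padi4 was at -0.82 in SGC0946 cells and passed (edgeR adjusted p = 0.000219).

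Chil3 rose by 0.53 ± 0.17 in DMSO cells (edgeR adjusted p = 0.00986), a direction that turned to -0.20 with library totals. The call was lost without DMSO+LPS replicate 3 (0.0606). Chil3 was at 0.31 and did not pass without the libraries titled reanalyzed, where DMSO replicate 4 alone was left in its group. Its value in SGC0946 cells was 0.49 ± 0.25 (edgeR adjusted p = 0.0816), which was -0.24 with library totals and passed with the mouse as a block (0.62, edgeR adjusted p = 0.0358) and without SGC0946 replicate 4 (0.70, edgeR adjusted p = 0.0185). Ngp was at 0.51 ± 0.46 in SGC0946 and 0.40 ± 0.21 in DMSO cells (edgeR adjusted p = 0.318 and 0.0976). With library totals Ngp turned to -0.22 and -0.33, and with the mouse as a block it passed in DMSO cells (0.55, edgeR adjusted p = 0.00432), as it did with DESeq2 (0.0444), with only the groups compared (0.0179) and without replicates 2 and 4 (0.0106). Without SGC0946 replicate 4, which had 24 reads, Ngp passed in SGC0946 cells at 1.15 (edgeR adjusted p = 0.0223). That value compares 8, 14 and 6 reads with LPS with 5, 9 and 6 without. It was the only pass of Ngp there, 1 of 16 alternatives. Ngp met the low-count filter through the DMSO libraries, and the unstimulated values were in view when the genes were chosen. Serpinb1a did not pass in either arm (0.01 ± 0.29 and -0.09 ± 0.25), and with library totals it was -0.73 and -0.81 and passed in both (edgeR adjusted p = 0.0244 and 0.00483).

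In all, 3 of the 8 genes rose and 1 fell with LPS in SGC0946 cells, and 2 rose and 2 fell in DMSO cells. With library totals the tally was 1 higher and 3 lower in each arm, and the median of the 8 genes was -0.23 in SGC0946 and -0.35 in DMSO cells, against 0.50 and 0.38 with TMM. Of all genes tested, 35.8% rose and 38.8% fell in SGC0946 cells, and 35.4% rose and 38.7% fell in DMSO cells, so a called response was common among all genes too. With the mouse as a block the DMSO count was 7 of 8, with 5 higher and 2 lower. The unstimulated DMSO group of this comparison holds the 3 libraries titled reanalyzed. Without them DMSO replicate 4 alone is left in that group, so a count of calls there cannot be set beside the others. The differences of the LPS response between the arms, SGC0946 minus DMSO, were 0.79 ± 0.43 for S100a9, 0.60 ± 0.51 for S100a8 and -0.69 ± 0.63 for Ltf, and the 4 genes other than these and Lcn2 lay between -0.03 and 0.37. Without replicates 2 and 4 the S100a9 difference was 1.88.

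**Figure D4:**
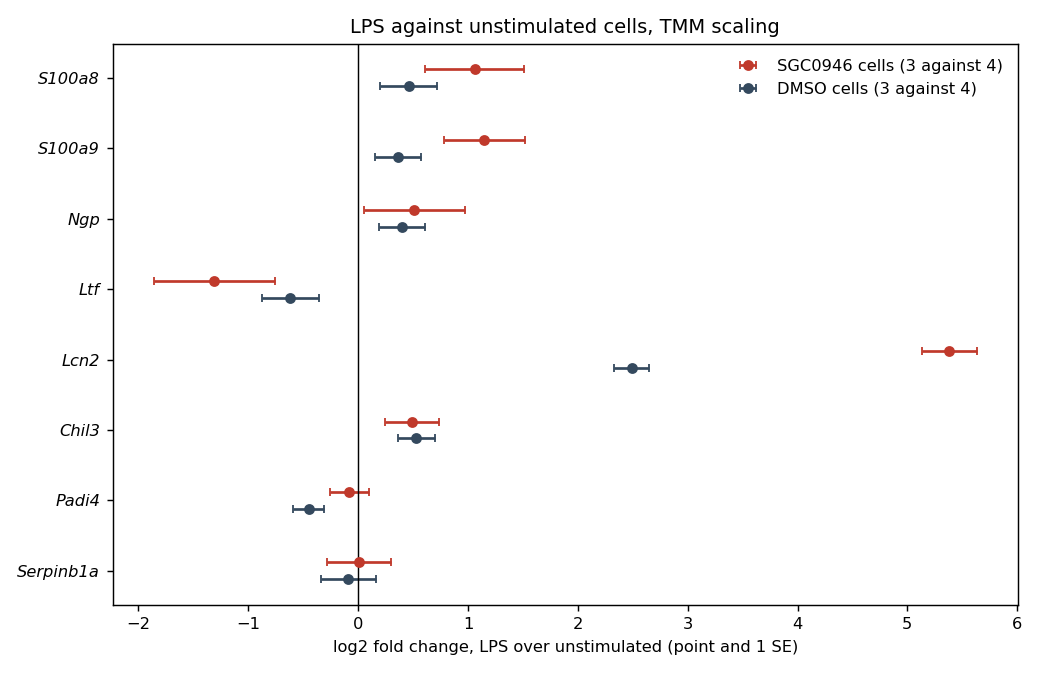
Log2 fold change of LPS over unstimulated cells (point and 1 SE, TMM scaling) in SGC0946 cells (red) and DMSO cells (dark grey). Lcn2 stands at 5.38 and 2.49, Ltf lies under 0 in both arms, and the positive values of Ngp and Chil3 in both arms and of S100a8 and S100a9 in DMSO cells turn negative with library totals.

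GW3965 left most of the genes without a call. In SGC0946 cells Ltf was at 0.177 ± 0.0792 CPM with GW3965 (n = 3), against 1.20 ± 0.748 CPM without (n = 4), a log2 fold change of -2.69 ± 0.61 (edgeR adjusted p = 0.0185). That value compares 6 reads with 62, of which 32 were in SGC0946 replicate 4, and the unstimulated values were in view when the genes were chosen. Ltf, Ngp and Lcn2 passed the low-count filter through the DMSO libraries: with only the 2 SGC0946 groups in the fit, 5 of the 8 genes were tested and these were not among them. The Ltf call held in 11 of 16 alternatives, with adjusted p between 0.00233 and 0.223. It was lost without SGC0946 replicate 4 (0.0748), without SGC0946+GW3965 replicate 1 (0.101) or 3 (0.0867), without the libraries titled reanalyzed (0.0601) and without replicates 2 and 4 (0.223). The other 7 genes did not pass in SGC0946 cells, where Ngp was at -1.13 ± 0.54, Padi4 at -0.53 ± 0.18 and Lcn2 at 0.57 ± 0.48. The Ngp value compares 13 reads with 44, and the Lcn2 value 13 with 13. In DMSO cells 0 of 8 genes passed at the adjusted threshold with edgeR, 1 (Padi4) had an unadjusted p under 0.05, and DESeq2 called 0. The DMSO values lay between -0.45 for Padi4 (edgeR adjusted p = 0.0832) and 0.14 for Lcn2, and Ltf was at -0.08 ± 0.23. Of all genes tested 1.32% rose and 1.11% fell in SGC0946 cells, and 1.35% rose and 1.2% fell in DMSO cells. The Ltf response differed between the arms by -2.61 ± 0.67, the Ngp response by -0.85 ± 0.58, and the median over the 8 genes was -0.07.

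Per transcript length the order of the genes differed between the arms. In SGC0946 cells S100a9 (2.44 ± 1.55 RPKM, reads scaled to transcript length and library total), S100a8 (2.41 ± 1.09) and Serpinb1a (2.12 ± 0.987) were at the top and Ltf (0.444 ± 0.286) and Lcn2 (0.300 ± 0.109) at the bottom, and every pair of neighbours in the order overlapped over its libraries. In DMSO cells S100a9 led at 23.1 ± 3.41 RPKM, then S100a8 at 15.7 ± 3.29 and Ngp at 7.76 ± 1.31, with no overlap between these neighbours. Padi4, Chil3, Lcn2 and Serpinb1a followed at 3.65 to 4.39 RPKM with overlapping libraries, and Ltf was last at 2.63 ± 0.204 RPKM. With LPS, Lcn2 was first in SGC0946 cells at 7.86 ± 1.61 RPKM, apart from S100a9 at 3.38 ± 0.723 RPKM. In DMSO+LPS cells S100a9 stayed first at 18.3 ± 3.95 RPKM, and Lcn2 at 13.2 ± 0.594 RPKM overlapped with S100a8 at 13.4 ± 1.36 RPKM. With GW3965, Ltf was last in both arms, at 0.0647 ± 0.0275 RPKM in SGC0946 and 2.51 ± 0.561 RPKM in DMSO cells.

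Other neutrophil genes were tested in the SGC0946 comparisons. Of 41 genes for granule proteins, surface receptors and transcription factors, 17 were tested, 23 were under the low-count filter and 1 was not in the table. Among the 17 genes, 0 passed without stimulus with edgeR, where 3 (Cebpd, Il1r2 and Runx1) had an unadjusted p under 0.05 and DESeq2 called 0. With LPS 0 fell and 2 rose, and with GW3965 1 fell and 1 rose. The shares over all genes tested were 4.18% lower and 4.55% higher without stimulus, 3.26% and 3.86% with LPS, and 1.4% and 2.24% with GW3965. The genes that rose were Mmp25, a membrane-bound metalloproteinase of neutrophils, with LPS (0.76 ± 0.14, edgeR adjusted p = 0.00158) and GW3965 (2.19 ± 0.50, 0.0154), and Runx1 with LPS (0.28 ± 0.07, 0.0142). Mmp25 had 482, 410 and 327 reads in SGC0946+LPS libraries, against 222, 310 and 244 in DMSO+LPS libraries. Its GW3965 value rests on 12, 10 and 7 reads in SGC0946 libraries, against 1, 1 and 5 in DMSO libraries. When only the 2 GW3965 groups were fitted, 10 of the listed genes were tested and 0 passed. These counts depend on the low-count filter. With no such filter 40 of the listed genes were tested, and 1 passed without stimulus and 6 with GW3965. Over all genes the calls with GW3965 were then 561, against 437 with the filter. Mmp9, the gelatinase of tertiary granules, fell with GW3965 (-0.84 ± 0.22, edgeR adjusted p = 0.0393). The Mmp9 call was lost without SGC0946+GW3965 replicate 1 (0.134) or 2 (0.162) and without DMSO+GW3965 replicate 1 (0.0844), 2 (0.0751) or 3 (0.134), with only the groups compared (0.0872) and without replicates 2 and 4 (0.132). The Mmp25 call with GW3965 was lost without SGC0946+GW3965 replicate 1 (0.059) or DMSO+GW3965 replicate 1 (0.0937) or 2 (0.0764) and without replicates 2 and 4 (0.185), and the Runx1 call without SGC0946+LPS replicate 2 (0.0789) or DMSO+LPS replicate 1 (0.0619) or 2 (0.0793), with only the groups compared (0.0803) and without replicates 2 and 4 (0.223). Csf3r, the receptor for G-CSF, at -0.06 ± 0.14 and Mmp8, a collagenase of secondary granules, at -0.08 ± 0.09 did not pass without stimulus (edgeR adjusted p = 0.827 and 0.636). Csf3r passed in all 3 conditions without replicates 2 and 4, at -0.48, -0.43 and -0.45 (edgeR adjusted p = 0.003, 0.00297 and 0.00695). Hp passed with LPS without SGC0946+LPS replicate 2, at -2.19 (0.0283, against 0.244 with all libraries). That fit has 5 and 2 SGC0946 reads of Hp, against 11, 19 and 25 in DMSO libraries. Adam8 passed with GW3965 without SGC0946+GW3965 replicate 3, at -0.50 (0.0175, against 0.332 with all libraries).

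The transcription factors that act upstream of granule genes did not pass in any condition, Runx1 with LPS aside. Without stimulus Cebpa was at -0.10 ± 0.06, Cebpb at -0.09 ± 0.11, Cebpd at -0.34 ± 0.14 and Spi1, which encodes PU.1, at -0.04 ± 0.06 (edgeR adjusted p = 0.36, 0.664, 0.13 and 0.751). Cebpd passed with only the groups compared in the fit (-0.33, edgeR adjusted p = 0.0348). Without SGC0946+LPS replicate 2, Cebpb at -0.31 and Spi1 at -0.26 passed with LPS (edgeR adjusted p = 0.0484 and 0.0368). Cebpe, the factor of late granulocyte precursors, was under the filter, with 27 reads over 4 SGC0946 libraries and 19 over 4 DMSO libraries. Camp, the cathelicidin gene, 570 kb from Ngp on the same chromosome, had 3 reads over the SGC0946 libraries and 18 over the DMSO libraries without stimulus, 3 and 23 with LPS, and 0 and 18 with GW3965. Summed over the 23 genes under the filter, the level was 1.13 to 2.99 CPM in SGC0946 and 3.68 to 5.41 CPM in DMSO libraries without stimulus. It was 3.37 to 4.76 CPM in SGC0946+LPS and 4.50 to 7.78 CPM in DMSO+LPS libraries, and 1.55 to 2.57 CPM in SGC0946+GW3965 and 3.35 to 4.48 CPM in DMSO+GW3965 libraries. The means of 17, 14 and 14 of the 23 genes were lower with SGC0946 in these conditions, and those of 5, 7 and 6 were higher, with no test.

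**Figure D5:**
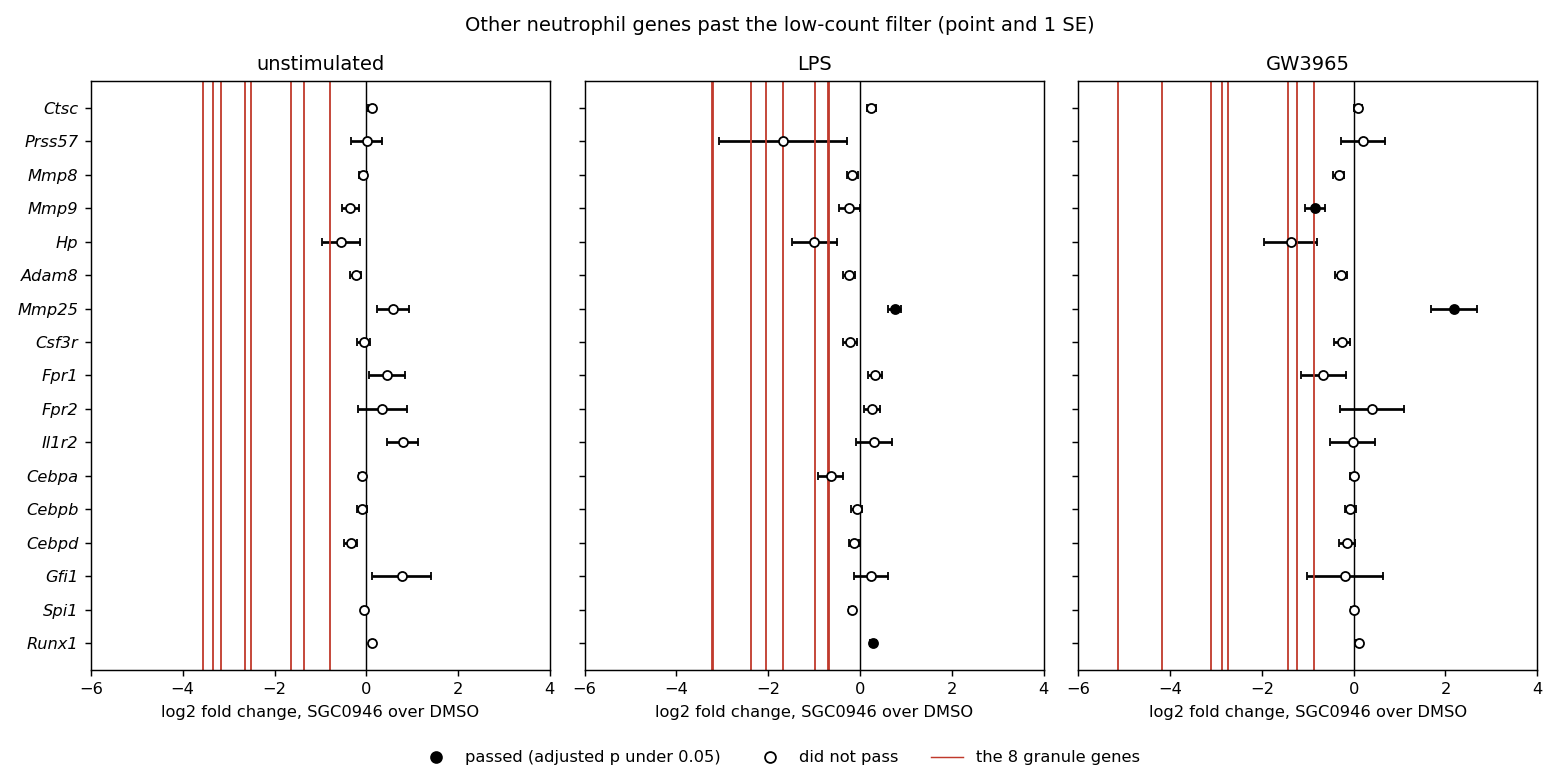
Log2 fold change of SGC0946 over DMSO (point and 1 SE) for 17 other neutrophil genes past the low-count filter; filled points passed the edgeR test and red lines mark the 8 granule genes. No point is filled without stimulus, Mmp25 is filled at 0.76 with LPS and 2.19 with GW3965, Runx1 with LPS and Mmp9 with GW3965.

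Close relatives of the 8 genes were mostly without a call. Of 34 listed paralogs, partners and receptors, 17 were tested, and the shares over all genes are those given above for the neutrophil genes. S100a13 fell without stimulus (-0.30 ± 0.08, edgeR adjusted p = 0.0181). The call was lost when SGC0946 replicate 4 (0.0779) or DMSO replicate 2 (0.0619) or 4 (0.0524) was left out, and without replicates 2 and 4 (0.447). It was also lost without the libraries titled reanalyzed, at -0.32 with DMSO replicate 4 alone left in its group. S100a4 and S100a6, which lie in the same gene family as the calprotectin genes, were at -0.23 ± 0.08 and -0.02 ± 0.05 (edgeR adjusted p = 0.0603 and 0.879). S100a4 passed with the mouse as a block (-0.24, edgeR adjusted p = 0.023), with DESeq2 (0.0441), with no low-count filter (0.0393) and without SGC0946 replicate 1 (0.0393) or 3 (0.038). Serpinb6b, a clade B serpin with an adjusted p of 0.0506 without stimulus, passed in 8 alternatives, among them the mouse as a block (0.46, edgeR adjusted p = 0.0059). Ctsc belongs to the list of neutrophil genes above and not to these relatives. It encodes cathepsin C, the activator of granule serine proteases, and passed with LPS with the mouse as a block (0.24, edgeR adjusted p = 0.0146). With LPS, Serpinb2, an inhibitor of plasminogen activators, rose by 0.98 ± 0.18 and Tlr4, the LPS receptor and a receptor for calprotectin, by 0.25 ± 0.07 (edgeR adjusted p = 0.00263 and 0.0319). The Tlr4 call was lost when SGC0946+LPS replicate 1 (0.0609) or 2 (0.13) or DMSO+LPS replicate 2 (0.167) or 3 (0.0716) was left out, and also with no low-count filter (0.0606), with only the groups compared (0.0501), without the libraries titled reanalyzed (0.0671) and without replicates 2 and 4 (0.316).

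With GW3965, 0 of the 17 relatives passed with edgeR, 2 (S100a4 and S100a10) had an unadjusted p under 0.05, and DESeq2 called 0. Calls were few among all genes there too, at 2.24% higher and 1.4% lower. The values that follow are without stimulus. Serpinb1c, the close paralog of Serpinb1a, averaged 10.2 ± 3.16 CPM with SGC0946 and 12.6 ± 1.37 CPM without it (-0.32 ± 0.22, edgeR adjusted p = 0.424), and Padi2 was at 0.04 ± 0.09 (0.826). Serpinb6a was at -0.00 ± 0.07 (edgeR adjusted p = 0.991), and Serpinb1b was under the filter. Chil4, a close paralog of Chil3, had 0 reads in all 20 libraries.

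The genes most like the 8 over the 20 libraries were found by the Pearson correlation of log2 CPM with the mean standardised profile of the 8. They were Dap (r = 0.930), Inf2 (0.890), Ankrd13a (0.881), Sort1 (0.881) and Plac8 (0.867). These libraries share their arms, stimuli and mice, so the values are a description. A high r does not mean a shift of the same size. Without stimulus the log2 fold changes of SGC0946 over DMSO were -0.24, -0.58, -0.29, -1.20 and -3.49 in that order. The median of the 8 genes was -2.58. Plac8 was near the floor, at 0.0395 CPM with SGC0946 and 0.558 CPM with DMSO. Sort1, which encodes the sorting receptor sortilin, averaged 39.5 CPM with SGC0946, against 91.0 CPM with DMSO alone, without stimulus. Among the 8 genes, S100a8 was most like S100a9 (r = 0.953) and Ngp (0.950), Chil3 was most like Ngp (0.941), Padi4 most like Sort1 (0.933), and Ltf most like Sort1 (0.931). Lcn2 was most like Fam107b (0.944) and Acot7 (0.942), Serpinb1a was most like Msmo1 (0.838), and the least alike members were Ltf and Lcn2 (0.409).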

How the data were processed

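Gene expression was measured by RNA sequencing in 20 libraries of bone marrow-derived macrophages in 6 groups. Libraries were made from 700 ng of RNA and read as 50 bp single-end reads, per the labels' protocols. Per the submitters' processing notes, STAR 2.5.2b, SAMtools 1.3.1 and the mm10 build were used; what counted the reads, and with which annotation or strand setting, was not given in the sources used here. Deposited by the authors were 2 tables over 35745 RefSeq transcripts, the raw read count in each library and the RPKM. Over 7317 transcripts checked, the deposited RPKM values were the counts per length and library total, with a median relative deviation of 9.63e-06. Transcripts were named through the RefSeq table of GRCm38.p6 (305 had no symbol and held 1.17% of counts), and the transcript with the highest total was kept per symbol, which left 57.4% of counts. S100a9 had another transcript by RPKM.

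The test was that of edgeR 4.0.16 under R 4.3.3, run on counts (quasi-likelihood F test, TMM scaling, filterByExpr with a count minimum of 10, 1 mean per group over all 20 libraries, 12013 genes, Benjamini-Hochberg adjustment over all genes, threshold 0.05). The common biological coefficient of variation was 8.87%. The method was tested on simulated data. Levels are TMM-scaled CPM with 1 SD over libraries, RPKM values are as deposited, and an SE is the absolute log2 fold change over the root of F. Alternatives were DESeq2 1.42.0, other scalings and filters, the RPKM-chosen transcripts, a fit of only the groups compared, the mouse as a block, and leaving out libraries. Deviations from the group means of same-mouse libraries of the 2 arms correlated at 0.0608 to 0.428 across genes, and the pairing itself comes from the deposited sample sheet, which names the mouse. Of the listed neutrophil genes, 1 is not reported here and was left out of the counts. The members and lists were chosen with earlier results of these data known. The text names all 8 members, up to 4 called genes per list and direction, a fixed set of related genes, and the most correlated genes; Spi1, Serpinb1c, Serpinb6b, Ctsc and the cell type markers were added after their values were seen.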

Additional observations from a re-analysis of the deposited data

Results flagged for a closer look

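Chil3 in SGC0946 replicate 4 stood above the other 3 unstimulated SGC0946 libraries, at 2.5 CPM (35 reads, where replicates 1 to 3 had 17, 22 and 18 reads). The variance of the Chil3 counts in this group was 1.56 times that of counting error alone. Lcn2 had less, at 0.392, and the other members had more, at 1.7 to 11.7. The gap to the nearest library was large for a group of 4. Of the members, 16 groups of 4 libraries were looked at in this way, and chance marks about 1 in 20. The same library had the highest level of its group for 6 of the 8 genes. Without it the Chil3 log2 fold change of SGC0946 over DMSO was -1.85.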

How the results depend on the processing

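SGC0946 over DMSO stayed negative for each of the 8 genes under every alternative run. With 1 library left out the median ran from -2.87 to -2.35 without stimulus, -1.99 to -1.77 with LPS and -3.24 to -2.58 with GW3965. With the mouse as a replicate block it was -2.61, -1.86 and -2.80. The number of other neutrophil genes called was 0, 2 and 2 in these comparisons. It became 1 without stimulus and 6 with GW3965 with no low-count filter, 1, 1 and 0 with only the groups compared, and 1 without stimulus and 1 with GW3965 without replicates 2 and 4; with 1 library left out it ran from 0 to 0, 1 to 4 and 0 to 4. LPS called 4 members in each arm. In DMSO cells this became 7 with only the groups compared and 7 with the replicate block. With 1 library left out 2 to 4 were called in SGC0946 and 3 to 4 in DMSO cells. Without the reanalyzed libraries DMSO replicate 4 alone was left in its group. GW3965 called 1 member in SGC0946 cells, which became 0 with only the groups compared (Ltf was then under the low-count filter), without the reanalyzed libraries and without replicates 2 and 4 (0 to 1 with 1 library left out), and 0 in DMSO cells, which became 1 with only the groups compared (0 to 0). The median difference of LPS responses, 0.24, became 0.53 without replicates 2 and 4 and ran from 0.2 to 0.55 with 1 library left out; that of GW3965 responses ran from -0.09 to 0.1. The replicate block changed no other call of a member than those given beside the results. The cause of these changes was not tested.

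Directions that turned were, for LPS in SGC0946 cells, Serpinb1a with no filter (-0.02), library totals (-0.73), the replicate block (-0.11) and without replicates 2 and 4 (-0.37), Padi4 without replicates 2 and 4 (0.19), and Ngp (-0.22) and Chil3 (-0.24) with library totals. In DMSO cells they were S100a8 (-0.26), S100a9 (-0.37), Ngp (-0.33) and Chil3 (-0.20) with library totals and Serpinb1a without the reanalyzed libraries (0.16). For GW3965 in DMSO cells they were S100a8 (0.02) and Ltf (0.05) with the replicate block and Ltf without replicates 2 and 4 (0.03). With 1 library left out, values on both sides of 0 were seen for LPS in SGC0946 cells in Padi4 (-0.18 to 0.02) and Serpinb1a (-0.22 to 0.33), for GW3965 in SGC0946 cells in S100a8 (-0.89 to 0.17), S100a9 (-0.04 to 0.67), Serpinb1a (-0.41 to 0.17) and Chil3 (-0.22 to 0.28), and for GW3965 in DMSO cells in S100a8 (-0.28 to 0.24), S100a9 (-0.25 to 0.07) and Ltf (-0.28 to 0.06). Leaving out the reanalyzed libraries removes a whole group from SGC0946 over DMSO with GW3965, from GW3965 in DMSO cells and from the difference of GW3965 responses, so it gave no value there. Depth limits the SGC0946 levels, which rest on 1 to 113 reads per library and gene.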
